A study of Homo sapiens with 6 samples.

Results

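Aminoacyl-tRNA synthetases and 3 proteins that work with them were followed by their mRNA in the human acute myeloid leukaemia line SKM-1 after 48 h of celastrol or DMSO. Members were the rows of the deposited gene table whose symbols were those of 20 cytosolic enzymes or subunits, 16 mitochondrial enzymes (symbols ending in ARS2) and the accessory proteins AIMP1, AIMP2 and XPOT. They made 39 of the 58735 genes in the table, and the older symbols of GENCODE release 29 were kept. There were 3 libraries of celastrol-treated cells and 3 of DMSO-treated cells, and no other treatment or genotype is named in the labels. Celastrol is a triterpenoid of the thunder god vine, and the labels do not state its dose. DMSO is the solvent control.

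Each synthetase joins 1 kind of amino acid to its matching tRNA, the step that makes the substrates of the ribosome. Cytosolic protein synthesis and the ribosome of mitochondria use largely separate sets of nuclear-encoded enzymes, although GARS and KARS each encode the glycine or lysine enzyme of both compartments. The transcription factor ATF4 of the amino acid and stress response is known to drive many cytosolic synthetase genes through a C/EBP-ATF response element.

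The core of that element, TGATGNAA, was searched on both strands of the RefSeq promoter windows (GRCh38.p14), which run from 250 bases before to 50 bases after a start site. Of the 39 members, 33 had a window, and the core lay in the windows of 7 of 16 cytosolic genes (43.8%), 1 of 14 mitochondrial genes (7.14%) and 0 of 3 accessory genes. Of all genes with a window in the table, 4.46% held it, and of all windows, 3.62% did. Some genes have more than 1 window, and a gene counted when any of its windows held the core. CARS, GARS and TARS have 2 windows each, 1 of which holds it. The start site given for a match is that of the window with the core. The matches are printed because 7 of the 8 lie in cytosolic genes. Each line reads 5′ to 3′ on the gene's strand, with the core or its reverse complement in capitals.
AARS: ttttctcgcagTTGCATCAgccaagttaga
CARS: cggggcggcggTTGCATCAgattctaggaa
GARS: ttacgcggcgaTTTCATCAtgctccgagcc
IARS: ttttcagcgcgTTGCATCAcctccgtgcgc
MARS: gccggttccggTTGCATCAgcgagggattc
NARS: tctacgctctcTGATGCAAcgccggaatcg
TARS: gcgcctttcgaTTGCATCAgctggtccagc
YARS2: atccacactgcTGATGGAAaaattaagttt

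Coordinates are those of the printed 30 bases. The AARS stretch lies at chr16:70289675-70289704 on the minus strand, and its core starts 187 bases before the start site. The cores of CARS (chr11:3057407-3057436, minus strand), GARS (chr7:30594834-30594863, plus strand), IARS (chr9:92293692-92293721, minus strand) and MARS (chr12:57488053-57488082, plus strand) start 2, 33, 13 and 4 bases before theirs, so that those of CARS and MARS run across the start site. The NARS core (chr18:57621804-57621833, minus strand) starts 14 bases past the start site and the TARS core (chr5:33440956-33440985, plus strand) 2 bases past it. In YARS2 the core (chr12:32756076-32756105, minus strand) starts 197 bases before the start. AARS, CARS, IARS, MARS and TARS share the 8 letters TTGCATCA on the gene's strand, and NARS carries the same letters in the other orientation. A match is a description of these letters and shows no binding.

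Libraries held 15231742 to 16231066 reads on listed genes with celastrol and 13549187 to 15410904 with DMSO. The unit was FPKM, fragments scaled to gene length and to a total set for each library. No label says that the libraries came from separate cultures, so p-values reflect library-to-library spread, which may be technical. Reads of the mitochondrial genome were 1.37% to 1.85% of listed reads with celastrol and 5.44% to 5.65% with DMSO, and their part in the results was not tested. Of 5 myeloid markers above the filter, PTPRC (14.8 FPKM with celastrol and 12.7 with DMSO), SPI1 (22.3 and 17.9) and LYZ (17.6 and 38.0) were above 10 FPKM in every library. CD33 (1.52 FPKM with celastrol and 1.68 with DMSO) and KIT (1.05 and 5.28) were low, and MPO and CD34 were at or near 0. Of the 8 markers of other cell types, COL1A1, COL3A1, CD3E, MS4A1 and ALB lay under 1 FPKM in every library, whereas KRT8 (94.0 FPKM with celastrol and 55.7 with DMSO) and EPCAM (15.6 and 32.1) were present in both groups. The 8 myeloid markers summed to 55.3 to 60.7 FPKM with celastrol and 73.1 to 79.6 FPKM with DMSO, and the 8 markers of other cell types to 102.6 to 127.1 FPKM with celastrol and 88.3 to 93.4 FPKM with DMSO; their part in the results was not tested.

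On the FPKM scale, most cytosolic synthetases were lower with celastrol, while the mitochondrial set changed little. FPKM is relative to a library total and gives no amount per cell. The cytosolic members summed to 1107, 1052 and 1044 FPKM with celastrol, against 1689, 1561 and 1669 FPKM with DMSO. Means were 1068 ± 34.3 FPKM with celastrol and 1640 ± 68.9 FPKM with DMSO (SD, n = 3 each), a ratio of 0.651, and the groups did not overlap. The mitochondrial members summed to 191.6, 187.9 and 191.1 FPKM with celastrol and 193.3, 190.5 and 198.9 FPKM with DMSO, a ratio of means of 0.979 with overlapping groups. Each library with celastrol thus held 5.46 to 5.78 times as much cytosolic as mitochondrial enzyme mRNA per length, against 8.19 to 8.74 times with DMSO. In bulk RNA, fewer cells that express a gene and less RNA per cell cannot be told apart.

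**Figure D1:**
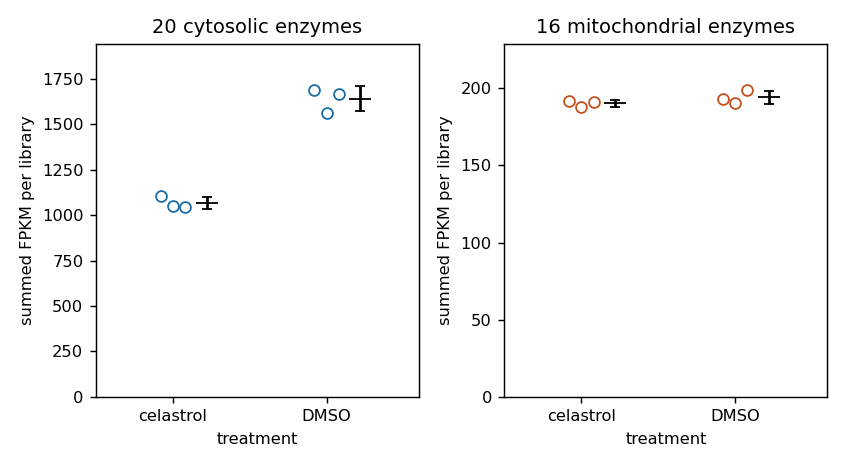
Summed FPKM per library of the 20 cytosolic enzyme genes (left) and the 16 mitochondrial enzyme genes (right), for celastrol and DMSO; circles are libraries, and the lines beside them show the mean and SD of 3 libraries. The cytosolic sums with celastrol, 1044 to 1107, lie under the DMSO sums of 1561 to 1689, while the mitochondrial sums of the groups overlap.

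All 39 members had a mean of at least 1 FPKM and were tested with limma on log2(FPKM + 0.1) among 12685 genes, at a Benjamini-Hochberg adjusted p of 0.05. Of the 39, 17 passed (16 lower and 1 higher), where 29.5% of all genes tested passed. Of the 20 cytosolic members, 14 fell and 0 rose, where 14.2% of all genes tested fell and 15.3% rose. Their median log2 fold change was -0.50, and that of all genes was 0.02. Of the 16 mitochondrial members, 1 rose and 1 fell, with a median of -0.07. The groups did not overlap for 21 members, as for 47.3% of all genes. The celastrol libraries lay wholly below the DMSO libraries for 14 cytosolic and 4 mitochondrial members, as they did for 22% of all genes, and wholly above for 0 and 2, as for 25.3%. Of called genes, 52.0% rose, against 86.6% after rescaling to TPM and 70.0% after scaling to listed reads, which moved the median of all genes to 0.26 and 0.12. The median over cytosolic members lay 0.43 below that of mitochondrial members (difference -0.43), and between -0.44 and -0.41 under the other scalings and tests.

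**Figure D2:**
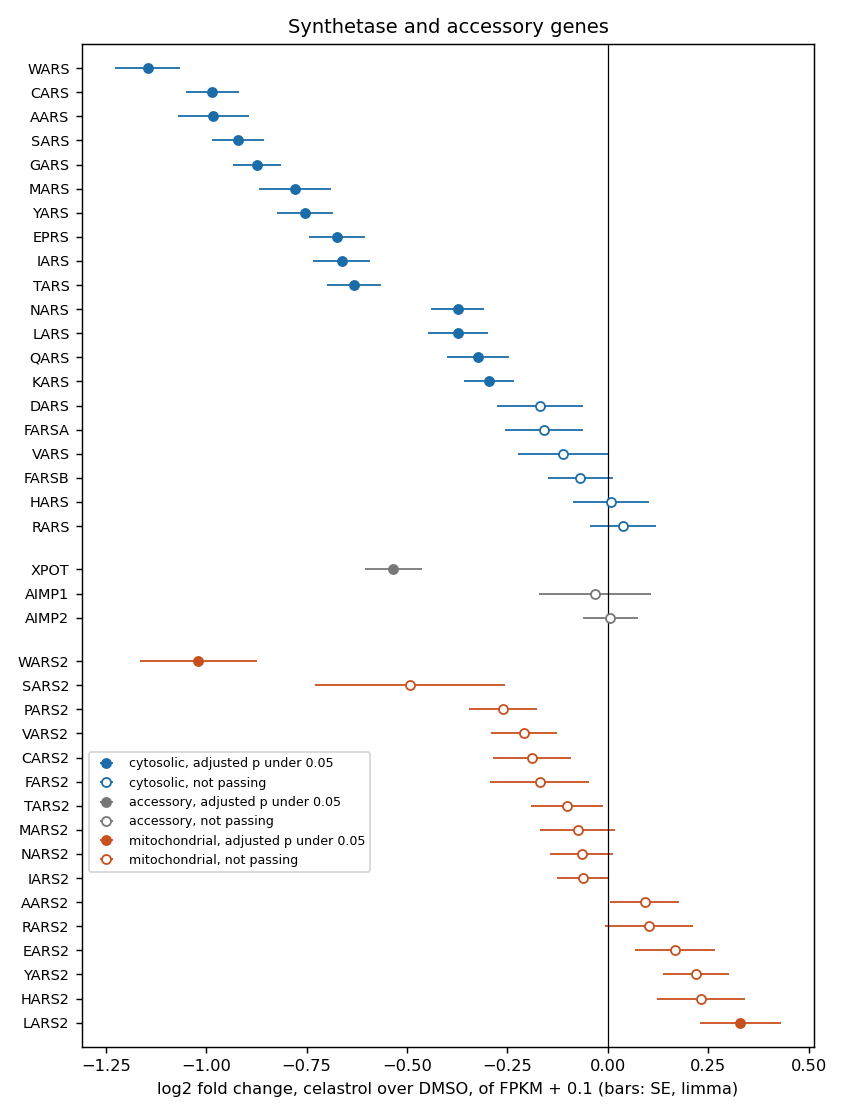
The log2 fold change of FPKM + 0.1, celastrol over DMSO, of each member, with its SE from limma (bars); filled points passed an adjusted p of 0.05 and open points did not. The 14 filled cytosolic points run from -1.15 for WARS to -0.30 for KARS, and all but WARS2 and LARS2 of the mitochondrial points are open.

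Among enzymes outside the multi-synthetase complex, 8 of 12 fell, against 14.2% of all genes tested, with a median log2 fold change of -0.69. WARS, the tryptophan enzyme (chr14:100333788-100376805, minus strand, GRCh38), fell most. Its level was 62.5, 56.8 and 57.0 FPKM with celastrol and 135.2, 118.9 and 136.4 FPKM with DMSO. The highest celastrol library stood well under the lowest DMSO library, and the DMSO mean was 2.22 times the celastrol mean (log2 fold change -1.15, SE 0.08, limma adjusted p = 0.000156). In the order of mean FPKM over the 39 members, WARS stood at place 10 with celastrol and place 3 with DMSO. It shares 4.51% of its exonic bases with WDR25 on the other strand, which averaged 2.92 FPKM.

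AARS, which charges alanine tRNA (chr16:70252295-70289543, minus strand), was the most abundant member in both groups. It was at 126.8, 120.9 and 118.9 FPKM with celastrol, against 268.2, 216.4 and 242.3 FPKM with DMSO. The groups lay far apart, with a log2 fold change of -0.98 (SE 0.09, limma adjusted p = 0.000416). The serine enzyme gene SARS (chr1:109213918-109238169, plus strand) stood at place 2 in both groups. SARS had 84.4, 81.6 and 82.7 FPKM with celastrol, against 164.7, 148.5 and 158.2 FPKM with DMSO (log2 fold change -0.92, SE 0.07, limma adjusted p = 0.000165). It also loads the tRNA on which selenocysteine is made, and its RefSeq windows, like those of WARS, hold no TGATGNAA.

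CARS, the cysteine enzyme (chr11:3000922-3057613, minus strand), was the least abundant cytosolic member with celastrol, at 7.01, 7.06 and 7.16 FPKM, against 14.1, 13.7 and 14.5 FPKM with DMSO. Within each group its libraries differed by less than 1 FPKM, and its log2 fold change was -0.98 (SE 0.07, limma adjusted p = 0.000136). GARS, whose product charges glycine tRNA in cytosol and mitochondria (chr7:30594681-30634033, plus strand), had 70.3, 69.7 and 71.8 FPKM with celastrol. With DMSO it had 131.5, 125.2 and 131.5 FPKM, all above the celastrol libraries (log2 fold change -0.87, SE 0.06, limma adjusted p = 0.000155). Variants in GARS cause an inherited neuropathy of motor nerves, as do variants in several other synthetase genes.

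YARS, the tyrosine enzyme (chr1:32775237-32818153, minus strand), was at 45.5, 43.6 and 44.0 FPKM with celastrol and 78.9, 69.8 and 76.0 FPKM with DMSO (log2 fold change -0.75, SE 0.07, limma adjusted p = 0.000466). TARS, the threonine enzyme (chr5:33440696-33469539, plus strand), was at 57.7, 56.3 and 54.9 FPKM with celastrol and 82.0, 89.3 and 90.9 FPKM with DMSO (log2 fold change -0.63, SE 0.07, limma adjusted p = 0.000791). Neither gene's groups overlapped. NARS, the asparagine enzyme (chr18:57600656-57622213, minus strand), fell less, with 50.9, 52.8 and 54.1 FPKM under celastrol and 65.4, 68.1 and 71.1 FPKM under DMSO (log2 fold change -0.37, SE 0.07, limma adjusted p = 0.00566).

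FARSA and FARSB encode the alpha and beta subunits of the phenylalanine enzyme, and neither passed the test. FARSA had 82.4, 73.8 and 70.9 FPKM with celastrol and 94.6, 76.2 and 83.3 FPKM with DMSO (limma adjusted p = 0.258). FARSB had 24.9, 22.8 and 21.3 FPKM with celastrol and 23.8, 25.3 and 23.1 FPKM with DMSO (limma adjusted p = 0.554). For both subunits the groups overlapped. VARS, the valine enzyme, had 85.5, 74.7 and 70.1 FPKM with celastrol and 93.7, 73.1 and 82.4 FPKM with DMSO (limma adjusted p = 0.483). HARS, the histidine enzyme, had 9.69, 9.89 and 11.9 FPKM with celastrol and 10.7, 9.94 and 10.6 FPKM with DMSO (limma adjusted p = 0.952). These 2 genes overlapped between groups as well.

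The multi-synthetase complex holds 8 of the cytosolic enzymes on a scaffold that includes AIMP1 and AIMP2. Of those enzymes 6 fell and 0 rose, where 14.2% of all genes tested fell and 15.3% rose, and their median log2 fold change was -0.35. MARS, the methionine enzyme, which also loads the initiator tRNA (chr12:57475445-57517569, plus strand), had 48.5, 45.7 and 46.9 FPKM with celastrol and 88.2, 71.3 and 83.6 FPKM with DMSO. Its log2 fold change of -0.78 (SE 0.09) was the greatest fall among complex enzymes (limma adjusted p = 0.00106). MARS shares 5.05% of its exonic bases with DDIT3 on the other strand, a gene that itself fell, and the labels do not say whether the counting kept strand.

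EPRS, a single chain with glutamate and proline activities (chr1:219968601-220046658, minus strand), had 82.2, 77.9 and 76.7 FPKM with celastrol. With DMSO it had 118.8, 126.8 and 132.4 FPKM, so that no libraries overlapped (log2 fold change -0.67, SE 0.07, limma adjusted p = 0.000675). IARS, the isoleucine enzyme (chr9:92210207-92293756, minus strand), had 40.6, 38.7 and 36.4 FPKM with celastrol and 58.9, 60.7 and 63.6 FPKM with DMSO (log2 fold change -0.66, SE 0.07, limma adjusted p = 0.000771). These 2 genes and MARS were the complex enzymes that fell at least 1.5-fold; 7 of the 12 enzymes outside the complex also did, against 6.1% of all genes tested. No member rose by that much, as 5.18% of all genes did.

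LARS, KARS and QARS fell by less. LARS, the leucine enzyme (chr5:146113038-146182660, minus strand), had 37.8, 37.7 and 33.7 FPKM with celastrol and 44.9, 48.6 and 47.9 FPKM with DMSO (log2 fold change -0.37, SE 0.07, limma adjusted p = 0.00947). KARS, which serves lysine in cytosol and mitochondria (chr16:75627474-75648643, minus strand), had 60.6, 58.1 and 62.4 FPKM with celastrol and 75.01, 72.3 and 74.99 FPKM with DMSO (log2 fold change -0.30, SE 0.06, limma adjusted p = 0.0115). QARS, the glutamine enzyme (chr3:49095932-49105135, minus strand), had 63.8, 60.7 and 56.5 FPKM with celastrol and 80.1, 71.2 and 75.3 FPKM with DMSO (log2 fold change -0.32, SE 0.08, limma adjusted p = 0.0175). In all 3 genes the celastrol libraries were below the DMSO libraries. With TPM, these 3 and NARS did not pass (log2 fold changes of -0.06 for KARS, -0.13 for LARS, -0.08 for QARS and -0.13 for NARS). The KARS call was also lost without celastrol replicate 2 (limma adjusted p = 0.0619) or DMSO replicate 3 (0.0627), and that of QARS without celastrol replicate 2 (0.0608) or 3 (0.0535) or DMSO replicate 3 (0.0692).

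DARS and RARS, the aspartate and arginine enzymes of the complex, did not pass. DARS had 35.3, 32.5 and 33.3 FPKM with celastrol and 32.3, 42.8 and 39.4 FPKM with DMSO (log2 fold change -0.17, SE 0.11, limma adjusted p = 0.267). DMSO replicate 1 of DARS lay below every celastrol library, and without it the gene passed (log2 fold change -0.29, limma adjusted p = 0.0304). RARS had 31.1, 30.5 and 33.7 FPKM with celastrol and 28.3, 33.1 and 31.5 FPKM with DMSO (log2 fold change 0.04, SE 0.08, limma adjusted p = 0.763).

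Neither scaffold gene passed the test. AIMP1 had 12.5, 14.3 and 14.3 FPKM with celastrol and 11.2, 16.5 and 14.7 FPKM with DMSO (log2 fold change -0.03, SE 0.14, limma adjusted p = 0.879). AIMP2 had 15.6, 16.7 and 15.9 FPKM with celastrol and 16.3, 15.3 and 16.4 FPKM with DMSO (log2 fold change 0.01, SE 0.07, limma adjusted p = 0.949). AIMP2 shares 28.9% of its exonic bases with EIF2AK1 on the other strand, which averaged 71.5 FPKM, so its value is uncertain. With TPM, HARS, RARS and AIMP2 passed as higher, at log2 fold changes of 0.25, 0.28 and 0.25, close to the median of all genes on that scale. XPOT, the exportin that carries tRNA out of the nucleus (chr12:64404350-64451127, plus strand), fell. It had 44.2, 46.4 and 45.2 FPKM with celastrol and 61.0, 66.9 and 69.0 FPKM with DMSO, with no overlap (log2 fold change -0.53, SE 0.07, limma adjusted p = 0.00193).

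**Figure D3:**
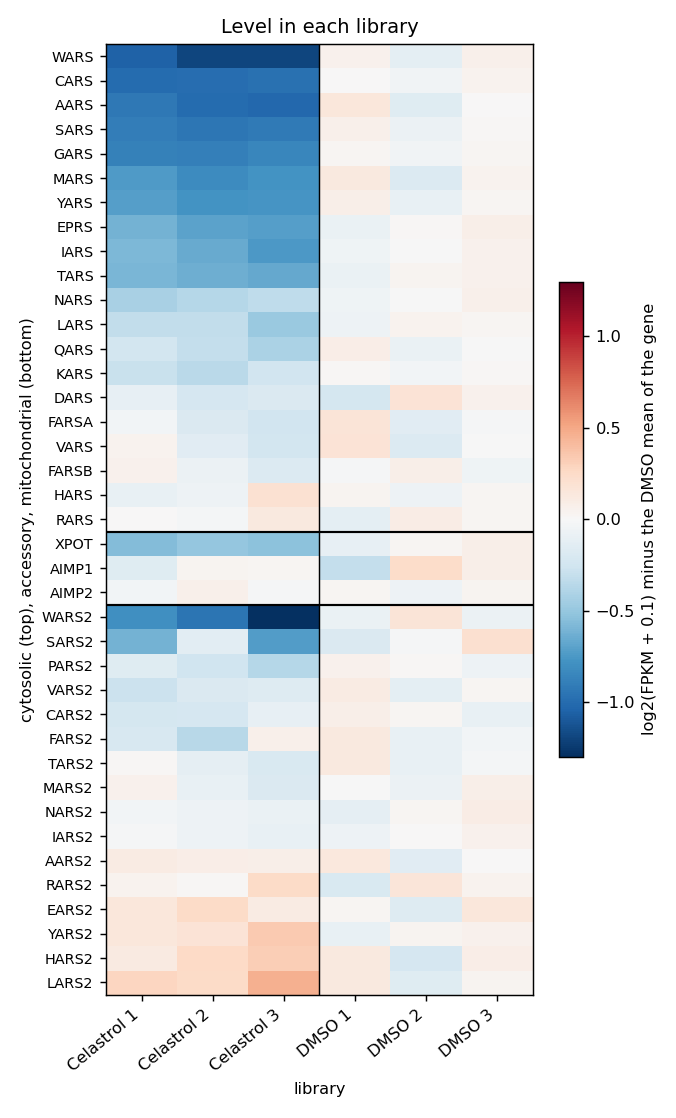
Level of each member in each library, as log2(FPKM + 0.1) minus the mean of that value over the 3 DMSO libraries (colour, log2 units); rows are members in the order cytosolic, accessory and mitochondrial, and columns are the 3 celastrol and 3 DMSO libraries. The upper cytosolic rows, XPOT and WARS2 are blue in every celastrol library, whereas AIMP1, AIMP2 and most mitochondrial rows stay pale.

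The enzymes also fall into the structural classes I and II by the architecture of their catalytic domain, and EPRS is counted here by its glutamate part. Of the 10 cytosolic class I members 8 fell, against 14.2% of all genes tested, with a median log2 fold change of -0.67. Of the 10 cytosolic class II members 6 fell, with a median of -0.34. The class II members that did not pass were DARS, FARSA, FARSB and HARS, and those of class I were RARS and VARS.

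WARS2 was the single mitochondrial member that fell. The gene, which charges tryptophan tRNA in mitochondria (chr1:119031216-119140671, minus strand), had 3.77, 3.40 and 2.61 FPKM with celastrol and 6.23, 7.49 and 6.28 FPKM with DMSO. The groups did not overlap, and the DMSO mean was 2.04 times the celastrol mean (log2 fold change -1.02, SE 0.15, limma adjusted p = 0.00259). Its libraries held 169 to 388 reads of the gene, and it shares 4.68% of its exonic bases with AL359915.2 on the other strand, which averaged 2.43 FPKM.

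LARS2, the mitochondrial leucine enzyme (chr3:45388506-45549421, plus strand), was the single synthetase member that rose. It had 10.9, 10.6 and 12.4 FPKM with celastrol and 9.79, 7.98 and 9.13 FPKM with DMSO (log2 fold change 0.33, SE 0.10, limma adjusted p = 0.0417). The lowest celastrol library was above the highest DMSO library, but the call was lost when celastrol replicate 1, 2 or 3 (limma adjusted p = 0.0775, 0.0735 and 0.125) or DMSO replicate 2 or 3 (0.0803 and 0.1) was left out. YARS2, the tyrosine enzyme, was also higher in every celastrol library, at 12.3, 12.6 and 14.0 FPKM, against 10.4, 11.4 and 11.5 FPKM with DMSO, and did not pass (limma adjusted p = 0.0812).

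PARS2, the proline enzyme, had 6.75, 6.29 and 5.78 FPKM with celastrol and 7.81, 7.60 and 7.17 FPKM with DMSO, which just missed the threshold (log2 fold change -0.26, SE 0.08, limma adjusted p = 0.0519). VARS2, for valine, had 10.2, 10.9 and 11.04 FPKM with celastrol and 13.3, 11.3 and 12.6 FPKM with DMSO (limma adjusted p = 0.0955). CARS2, for cysteine, had 3.02, 3.04 and 3.29 FPKM with celastrol and 3.75, 3.64 and 3.32 FPKM with DMSO (limma adjusted p = 0.181). In these 3 genes the celastrol libraries all lay below the DMSO libraries without passing. VARS2 passed without DMSO replicate 2 (log2 fold change -0.27, limma adjusted p = 0.0347) and with limma-voom (-0.23, limma adjusted p = 0.0416). PARS2 passed with quantile normalization (log2 fold change -0.27, limma adjusted p = 0.0477). Of 15 alternatives, VARS2 passed in 2 and PARS2 in 1. VARS2 shares 22% of its exonic bases with GTF2H4 on its own strand.

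The rest of the mitochondrial set overlapped between groups. IARS2, for isoleucine, was the most abundant of them, at 60.2 ± 1.81 FPKM with celastrol and 62.9 ± 2.61 FPKM with DMSO (SD, n = 3 each). It stood at place 9 of the 39 members with celastrol and place 15 with DMSO, while its own libraries overlapped between groups (log2 fold change -0.06, SE 0.07, limma adjusted p = 0.505). SARS2, the serine enzyme, was the least abundant, at 1.12 ± 0.28 FPKM with celastrol and 1.597 ± 0.24 FPKM with DMSO from 50 to 89 reads a library (log2 fold change -0.49, SE 0.24, limma adjusted p = 0.156). It shares 46.2% of its exonic bases with AC011455.2 on its own strand and 10.8% with MRPS12 on the other strand, which averaged 22.9 FPKM, so its value is uncertain.

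AARS2 (alanine), EARS2 (glutamate), HARS2 (histidine) and RARS2 (arginine) had higher means with celastrol, at 13.0, 6.61, 10.6 and 16.6 FPKM, against 12.3, 5.90, 9.08 and 15.5 FPKM with DMSO. FARS2 (phenylalanine), MARS2 (methionine), NARS2 (asparagine) and TARS2 (threonine) had lower means with celastrol, at 5.06, 5.17, 10.1 and 14.1 FPKM, against 5.67, 5.44, 10.5 and 15.2 FPKM with DMSO. None of these 8 passed with FPKM as deposited. Directions this small depend on the scaling. With TPM, whose median over all genes was 0.26, 6 of the 16 mitochondrial members rose, as did 5266 of the 12685 genes tested. With listed reads 3 members rose, as did 3024 of all genes tested. Neither count is above the share of all genes on its scale.

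HARS and HARS2 start head to head on chromosome 5 in the RefSeq table, with start sites at 140691370 (minus strand) and 140691455 (plus strand), 85 bases apart. Their promoter windows share 184 bases, and no TGATGNAA lies in either. The genes also share 437 exonic bases in GENCODE release 29, which is 5.56% of HARS and 11.7% of HARS2, on opposite strands. Neither member of this pair passed the test.

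Setting the enzymes side by side for the same amino acid gave 15 pairs. The cytosolic gene's log2 fold change was the lower in 13 of the 15, with a median difference of -0.53. The alanine pair differed most: per length, AARS mRNA was 9.38 times that of AARS2 with celastrol and 19.8 times with DMSO, a difference of log2 fold changes of -1.07. Tyrosine (-0.97), glutamate (-0.84), cysteine (-0.80), methionine (-0.70), leucine (-0.70), isoleucine (-0.60), threonine (-0.53), asparagine (-0.31) and histidine (-0.22) also gave the smallest p that an exact two-sided permutation test of 3 against 3 libraries allows, 0.1, or 0.15 adjusted over the 15 pairs. With 3 libraries a group that test cannot reach 0.05 for a single pair, and no other test of the pairs was run.

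The tryptophan pair was the one in which both genes fell. WARS mRNA was 18.0 times that of WARS2 with celastrol and 19.5 times with DMSO (difference -0.13, exact permutation p = 0.8). For isoleucine, IARS mRNA was 0.640 times that of IARS2 with celastrol and 0.971 times with DMSO. Serine (-0.43, exact permutation p = 0.2) had overlapping ratios, with the few reads of SARS2 behind them. The ratios of arginine (-0.07), phenylalanine (0.01) and valine (0.10) also overlapped between groups (exact permutation p = 0.3, 1.0 and 0.7; adjusted over the 15 pairs, 0.375, 1.0 and 0.808).

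**Figure D4:**
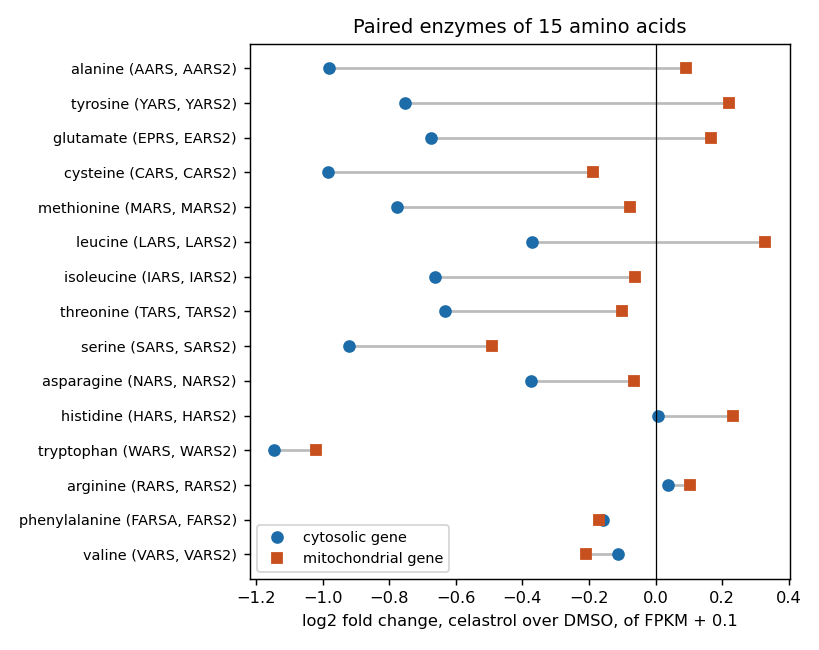
The log2 fold change of FPKM + 0.1, celastrol over DMSO, of the cytosolic gene (circle) and the mitochondrial gene (square) of 15 amino acids, joined by a line and sorted by their difference. The circle lies left of the square in 13 of 15 rows, by most for alanine (-1.07), and both tryptophan genes lie near -1.

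Among cytosolic members, each gene with the promoter core printed above fell. Only 4 cytosolic members with a window did not pass, and a link between the core and the fall was not tested. Of the 12 cytosolic members that fell and had a window, 7 held TGATGNAA (58.3%), and of the 4 with a window that did not pass, 0 held it (FARSA, FARSB, HARS and RARS). Over all genes tested, 4.79% of those that fell, 1.62% of those that rose and 2.39% of all with a window held it. WARS, SARS, EPRS, KARS and QARS fell without the core in their windows, and YARS2, the mitochondrial gene that holds it, did not pass. DARS, LARS, VARS, YARS, AARS2 and VARS2 had no window in the table.

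**Figure D5:**
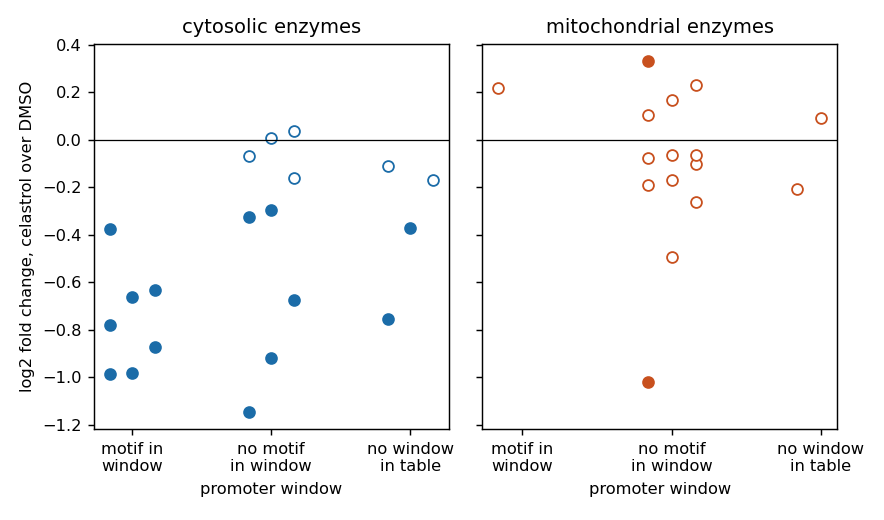
The log2 fold change of FPKM + 0.1, celastrol over DMSO, of each cytosolic (left) and mitochondrial (right) member. Members are placed by whether any of their RefSeq promoter windows holds TGATGNAA. Filled points passed an adjusted p of 0.05, open points did not. The 7 cytosolic genes with the core lie between -0.98 and -0.37, and the cytosolic genes without it spread from -1.15 to 0.04.

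ATF4 itself had 103.8, 108.1 and 122.8 FPKM with celastrol and 291.1, 270.1 and 294.2 FPKM with DMSO (log2 fold change -1.36, SE 0.08, limma adjusted p = 9.86e-05). The other 6 genes of a short list of its known targets and partners in the amino acid response also fell. Their log2 fold changes were -1.99 for ASNS, -1.79 for DDIT3, -2.33 for CHAC1, -1.35 for TRIB3, -1.45 for PSAT1 and -1.298 for SESN2. Of all genes tested, 14.2% fell. The list was chosen with earlier results of these data known, and a part of ATF4 in the levels of the synthetase genes was not tested.

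Other genes of the tRNA pathway are given for context. Of 13 tested genes of 15 that charge, edit or release tRNA outside the members, 1 rose and 1 fell, where 15.3% of all genes tested rose and 14.2% fell, and the median log2 fold change was 0.04. DTD1, which removes D-amino acids from tRNA, had 1.63, 1.62 and 1.64 FPKM with celastrol and 2.30, 2.18 and 2.35 FPKM with DMSO (log2 fold change -0.46, limma adjusted p = 0.0313). EEF1E1, the third scaffold protein of the complex, did not pass, at 14.9 ± 0.93 FPKM with celastrol and 17.5 ± 4.33 FPKM with DMSO (SD, n = 3 each).

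Of 20 tested genes of 22 for tRNA end processing, splicing and export, 7 rose and 3 fell, with a median log2 fold change of 0.17; 15.3% of all genes tested rose and 14.2% fell, a share near that of the genes that fell here. The largest called changes were in RPP25 (0.78), POP4 (0.77) and POP1 (0.61), subunits of RNase P, which trims the 5′ end of tRNA, and in TSEN15 (-0.72), a subunit of the tRNA splicing endonuclease. Of 20 genes of RNA polymerase III and its factors, which transcribe tRNA genes, 4 rose and 2 fell, with a median of 0.05, shares near those of all genes tested. Among them GTF3C6 (0.52) rose, and POLR3E (-0.46) and POLR3D (-0.30) fell.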

How the data were processed

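The deposited table holds FPKM per gene and library, made by the authors, with GRCh38 positions; tools named per the submitters' processing notes are the aligner HISAT2 (2.0.5) and the read counter featureCounts (1.5.0-p3). Strand and counting settings are not stated in the labels. FPKM times gene length gave whole reads for 100% of values (within 0.001 of a read); the library total that the authors divided by was 1.036 to 1.054 times the listed reads with celastrol and 0.963 to 0.994 times with DMSO, which lowers celastrol values relative to DMSO. All 58735 gene positions matched GENCODE release 29.

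Groups come from the sample titles. Genes with a mean of at least 1 FPKM were tested with limma 3.58.1 (limma-trend, two-sided, R 4.3.3) on log2(FPKM + 0.1) with treatment as the single term and Benjamini-Hochberg adjustment over all of them at 0.05. Fold changes are on that scale, which understates low genes; means, SDs and ratios are of FPKM. Pairs of enzymes were compared by exact permutation over libraries. Lists are described by counts and medians, without a set test. Replicate libraries differed beyond sampling noise (chi-square per gene of 4.01 to 13.41 within groups and 49.31 to 77.67 between them). Exons overlapping between genes were taken from GENCODE, and promoters from RefSeq tables by symbol. Alternatives changed the pseudocount, the filter, the scaling and the model, used limma-voom on recovered reads, added a replicate block, or left out 1 library.

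All 39 members are named, with up to 4 called genes by size from each further tRNA list, EEF1E1 (chosen after its values were seen), the amino acid response genes, and markers by level. The members and lists were chosen with earlier results of these data known. Some genes that this rule takes are not reported here. Protein sequences were not analysed here.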

Additional observations from a re-analysis of the deposited data

How the results depend on the processing

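Of the 17 members that passed, 12 also passed in every one of the alternatives they could be tested in: AARS, CARS, EPRS, GARS, IARS, MARS, SARS, TARS, WARS, YARS, XPOT and WARS2, which a mean of at least 5 FPKM leaves out. Rescaling to TPM gave 5266 genes higher and 813 lower, with a median of all genes of 0.264. Of the cytosolic members, 10 passed as lower and 2 as higher, against 14 and 0 with FPKM as deposited. The cytosolic median with TPM was -0.262. With TPM, 6 mitochondrial members were higher, and the mitochondrial median was 0.169. Scaling to listed reads gave 3024 genes higher, a cytosolic median of -0.405, 3 mitochondrial members higher and a mitochondrial median of 0.026. In both, the library total alone differs. With no filter, 0 mitochondrial members rose; with a mean of at least 5 FPKM, 0 fell, since WARS2 was not tested; with quantile normalization or limma-voom, 2 fell. Limma-voom called 2201 genes higher and 2227 lower. Leaving out 1 library at a time gave 1119 to 1948 genes higher and 1003 to 1766 lower, 12 to 15 cytosolic members lower, a cytosolic median of -0.542 to -0.482, 0 to 1 mitochondrial members higher, 1 to 2 lower, a mitochondrial median of -0.114 to -0.035, and a difference of medians of -0.458 to -0.409. The counts of genes fell furthest without celastrol replicate 2 (1119 higher and 1137 lower), celastrol replicate 3 (1211 higher) and DMSO replicate 3 (1140 higher and 1003 lower). The LARS2 call was also lost with no filter (limma adjusted p = 0.104).

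Log2 fold changes of members that changed sign, none of which had passed, were as follows. With TPM they were 0.071 for DARS, 0.082 for FARSA, 0.173 for FARSB, 0.13 for VARS, 0.208 for AIMP1, 0.047 for CARS2, 0.068 for FARS2, 0.179 for IARS2, 0.164 for MARS2, 0.175 for NARS2, 0.138 for TARS2 and 0.031 for VARS2. With listed reads they were 0.029 for FARSB, 0.065 for AIMP1, 0.036 for IARS2, 0.021 for MARS2 and 0.032 for NARS2. With quantile normalization they were -0.025 for HARS, -0.001 for RARS and -0.026 for AIMP2, and with limma-voom -0.009 for HARS and -0.012 for AIMP2. Leaving out 1 library, the values ranged from -0.085 to 0.062 for HARS, -0.026 to 0.087 for RARS, -0.189 to 0.086 for AIMP1 and -0.025 to 0.027 for AIMP2. For all of these and for the values above, the cause was not tested.

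Same-numbered libraries did not deviate together over the genes tested (correlations of -0.016, -0.033 and 0.034). These values cannot show whether such libraries shared a culture, which the labels do not state. With the replicate block, 1776 genes were higher and 1617 lower. Depth limits SARS2 most, with 50 to 89 reads a library, and that gene did not pass. Of the members that fell, WARS2 had the fewest reads, 169 to 388 a library.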

Other observations

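Read shares, which do not use gene length or the authors' library total, were computed beside the FPKM sums. The 20 cytosolic members took 0.584%, 0.565% and 0.550% of listed reads with celastrol, against 0.839%, 0.801% and 0.834% with DMSO. The 16 mitochondrial members took 0.0847%, 0.0850% and 0.0851% with celastrol, against 0.0814%, 0.0805% and 0.0824% with DMSO. On this measure the cytosolic shares were again lower with celastrol. The mitochondrial shares lay slightly above those of DMSO in all 3 libraries, where the FPKM sums overlapped. The listed reads in the denominator include those of the mitochondrial genome, 1.37% to 1.85% with celastrol and 5.44% to 5.65% with DMSO. Scaled to listed reads, the median log2 fold change of all genes was itself 0.12. The slight excess is therefore not particular to the mitochondrial members, and its cause was not tested.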
